A study of Mus musculus with 16 samples.

Results

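Collagen genes were taken from the expression table as the protein-coding genes whose symbol has the form of a collagen chain (Col, a type number, the letter a and a chain number). They were 44 of the 35275 genes listed. By the kind of structure their proteins build, 11 were fibrillar collagens, 6 were basement membrane collagens (all of type IV) and 27 belonged to other classes. The expression of these genes was followed in the mouse myoblast line C2C12, whose cells stop dividing and fuse into myotubes once serum is withdrawn. The cells were labelled PAX7 NEG. The 16 RNA-seq libraries came from 4 lines: 2 control populations, labelled wild type, and 2 clones in which the gene of miR-206 and both genes of miR-1a (miR-1a-1 and miR-1a-2) had been knocked out (triple knockout, tKO). Each line gave 2 cultures (1 and 2, from the labels BR1 and BR2) in growth medium with 20% FBS (GM) and 2 after 3 days in medium with 2% HS (DM3). Each genotype thus had 4 libraries per stage, named control GM, control DM3, tKO GM and tKO DM3. Each tKO line descends from 1 clone whereas the controls are populations, so an effect of the deletions and an effect of cloning cannot be told apart. Nothing in the labels says that the 2 cultures of a line were grown separately, so p-values measure only the spread between these libraries, which may be technical.

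Collagen chains wind around each other into helical rods that are secreted and then assembled outside the cell. Fibrillar collagens such as types I, III and V pack into fibrils that carry tension in the connective tissue of muscle, type IV collagen forms the network of the basement membrane that wraps each muscle fibre, and type VI collagen forms beaded filaments between the basement membrane and the fibrils. miR-1 and miR-206 are muscle microRNAs that share a seed, the bases at their 5′ end that pair with messenger RNAs, usually in the 3′ untranslated region (3′ UTR).

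The mature miR-206 sequence is shown first because its seed defines the sites searched for in the collagen 3′ UTRs. It lies at chr1:20679055-20679076 on the plus strand of GRCm38.p6 in RefSeq. Capitals mark the seed, bases 2 to 8.
mmu-miR-206-3p: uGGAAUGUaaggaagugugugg
The seed pairs with the 7-base motif ACATTCC. The motif followed by A (ACATTCCA) was counted as an 8-base site, and CATTCCA without the first A as the other 7-base form. Each motif was read on the transcript's strand only, and each was counted only where it was not part of an 8-base site. In the longest 3′ UTR of each gene in GENCODE mouse release M21, 1 of the 21 collagens expressed at a testable level held an 8-base site (4.76%), against 482 of 10790 tested protein-coding genes (4.47%). Any of the 3 forms was found in 6 of the 21 collagens (28.6%), against 19.0% of the 10790 genes. The collagen with the 8-base site was Col4a6, and the others with a site were Col4a2, Col5a1, Col6a1, Col6a3 and Col12a1. The levels of all 6 genes are described below, and the sites of Col4a6, Col6a1 and Col6a3 are shown as examples. The sites are in capitals and the sequences are in the direction of the transcript.
Col4a6 (8-base site, base 205 of a 3′ UTR of 1315): tggtgctaACATTCCAtttagata
Col6a1 (7-base site, base 709 of 767): gctcccccACATTCCccgtaatc
Col6a3 (7-base site, base 276 of 732): ttatgtgaACATTCCtataaatt
A match is a description of the sequence and not a measured site. The search was made with the expression values known. Col4a5, Col11a1, Col11a2, Col16a1 and Col18a1, which also appear below, held none of the 3 motifs in that 3′ UTR.

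Expression was given by the authors as FPKM, that is, fragment numbers divided by gene length and by library size, so levels of different genes can be set side by side per length. FPKM times gene length fell on whole multiples of 1 step in each library (100% of values under 1000 fragments, within 0.02 fragment), which gave back the fragment numbers: 22642563 to 56585952 per library. Tests used log2(FPKM + 1) and limma, a linear model fitted to all 11832 genes with a mean of at least 0.5 FPKM. Gene coordinates are those of the table, for which the submitters' processing notes name mm10. A gene was called changed at an adjusted p under 0.05, and log2 differences are given with their standard error. On this scale the change of weakly expressed genes is understated. Expression of the deleted microRNA genes was not analysed here, and the knockout labels therefore went unchecked. Summed myotube markers ranged in controls from 9.12 to 12.7 FPKM (GM) and from 852 to 1355 (DM3). The tKO ranges were wider, 10.8 to 73.1 and 341 to 1438, with the highest GM sum in clone 1, culture 2 and both low DM3 sums (341 and 479 FPKM for clones 1 and 2) in culture 2. All 7 tested markers of that list of 9 rose on differentiation in both genotypes. Pax7, the satellite cell factor named in the label, reached at most 0.0237 FPKM. In libraries made from bulk RNA, fewer cells that express a gene and less of its RNA per cell cannot be told apart.

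Of the 44 collagens, 21 passed the expression filter: 8 fibrillar, 4 basement membrane and 9 other. Col11a1, Col11a2 and Col23a1 passed although at least 1 group had a mean under 0.5 FPKM. Col11a2 and Col23a1 passed only through their highest group, tKO DM3 (mean of the 3 other groups 0.345 and 0.311 FPKM), so their differences are given as descriptions and counts are also given over the other 19. Nearest to the filter were Col23a1 (0.559 FPKM over all libraries) and Col11a2 (0.619) inside it and Col9a3 (0.397) and Col8a2 (0.319) outside. The collagens as a whole took 0.861% to 1.71% of all fragments in the GM libraries and 2.44% to 3.47% in the DM3 libraries, so the stages did not overlap. Summed collagen FPKM was 2146, 2554, 1974 and 2800.1 in control GM. Here and below, 4 values for a group follow the order line 1 culture 1, line 1 culture 2, line 2 culture 1, line 2 culture 2. In tKO GM the sums were 2089.8, 1343, 1898 and 2175, with clone 1, culture 2 the lowest library of the 16. The sums were 4964, 5965, 4770.2 and 5381 in control DM3 and 5434, 4124, 5723 and 5397 in tKO DM3. Genotypes overlapped at both stages, and the DM3 mean was 2.23 times the GM mean in controls and 2.75 times in tKO cells. Col1a1, Col1a2 and Col3a1 together made up 66.9 to 71.3% of collagen FPKM in control GM and 74.4 to 77.7% in control DM3. In the tKO clones the shares were 48.2 to 68.7% and 72.7 to 80.02%.

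More collagens were called between the culture stages than between the genotypes. In controls 16 of the 21 tested collagens changed between GM and DM3 (76.2%), against 61.5% of all tested genes. Of these, 14 were higher in DM3 (66.7%, against 23.2% of all genes) and 2 were lower (9.52%, against 38.3% of all genes). In tKO cells 16 also changed, against 60.9% of all genes, with 15 higher (71.4%, against 24.9%) and 1 lower (4.76%, against 36% of all genes). Over the 19, 12 were higher and 2 lower in controls (63.2% and 10.5%), and 13 were higher and 1 lower in tKO cells (68.4% and 5.26%). All 7 fibrillar collagens among the 19 rose in both genotypes. The median change of the 21 collagens was 1.16 on the log2 scale in controls and 1.01 in tKO cells (1.26 and 1.33 over the 19), while that of all tested genes was -0.15 and -0.12. Scaling the libraries by median of ratios moved the all-gene medians to 0.01 and 0.01 and left 14 and 15 collagens higher and 0 lower. With that scaling 3611 genes rose and 3631 fell in controls, in place of 2743 and 4529.

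**Figure D1:**
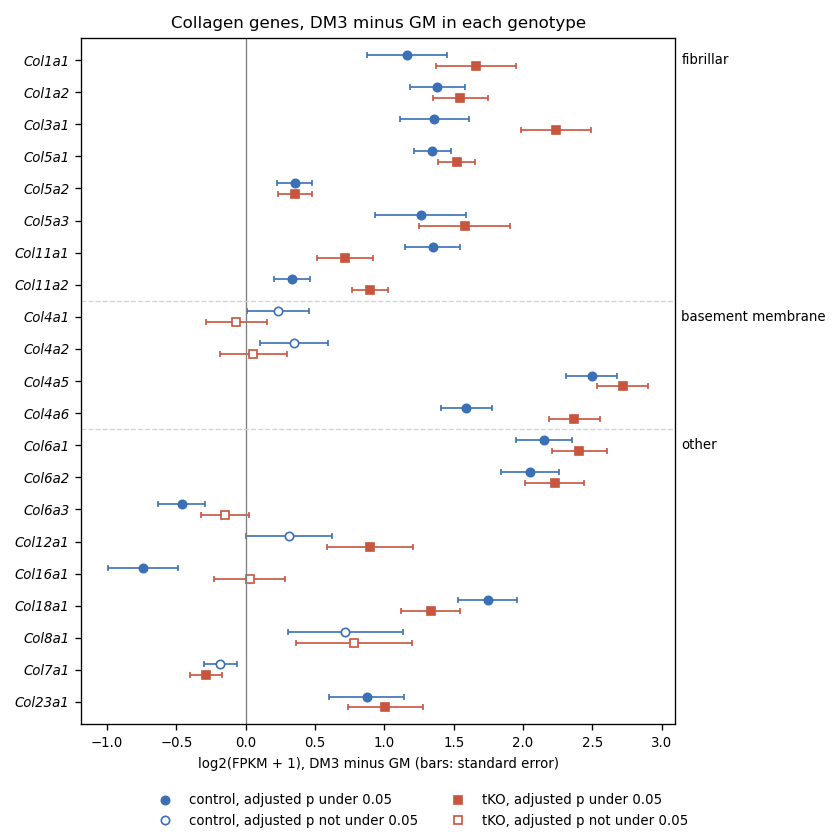
Change of the 21 tested collagens from GM to DM3 in control cells (blue circles) and tKO cells (red squares), as the difference of log2(FPKM + 1) with its standard error on the horizontal axis and genes by class on the vertical axis. Filled symbols have a limma adjusted p under 0.05. Those of Col11a2 and Col23a1 are descriptions, since both genes passed the expression filter only through tKO DM3. All 8 fibrillar collagens lie to the right of 0 in both genotypes, and Col4a5 shows the largest change on this scale in both (2.50 and 2.72).

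Type I collagen, the main fibril of most connective tissues, is built from the products of Col1a1 (ENSMUSG00000001506, chr11:94936224-94953042, plus strand) and Col1a2 (ENSMUSG00000029661, chr6:4504814-4541543, plus strand). Col1a1 stood at 366, 626, 371 and 680.03 FPKM in control GM and at 1037, 1258, 1061 and 1049 FPKM in control DM3. The tKO libraries were at 425, 239, 385 and 549 FPKM in GM and 1246, 692, 1811 and 1391 FPKM in DM3. Every DM3 library of a genotype lay above its GM libraries, and culture 2 was above culture 1 in control GM. The change was 1.16 ± 0.29 in controls and 1.66 ± 0.29 in tKO cells (adjusted p by limma = 0.00235 and 0.000109).

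Col1a2 was at 565, 684, 528 and 733 FPKM in control GM, 523, 262, 495 and 486 in tKO GM, 1555, 1776, 1521 and 1649 in control DM3 and 1188, 989.9, 1470.5 and 1401 in tKO DM3. It rose 2.59-fold in controls and 2.86-fold in tKO cells by group means (log2 1.38 ± 0.20 and 1.55 ± 0.20, limma adjusted p = 1.53e-05 and 4.62e-06). At each stage every tKO library was below every control library, but the genotype difference was not called (log2 -0.54 ± 0.20 in GM and -0.38 ± 0.20 in DM3, limma adjusted p = 0.155 and 0.345). The DM3 ratio of Col1a1 to Col1a2 FPKM was 0.636 to 0.708 for controls and 0.700 to 1.23 for the tKO clones. These ranges overlap through tKO clone 1, culture 2.

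Col3a1 (ENSMUSG00000026043, chr1:45311538-45349706, plus strand) encodes the single chain of type III collagen, which accompanies type I in extensible tissue. Its levels were 506, 510.03, 437 and 547 FPKM in control GM and 487, 147, 359 and 300.5 in tKO GM, where clone 1, culture 2 was the lowest. In DM3 they were 1263, 1452, 1120.5 and 1307 FPKM in controls and 1697, 1317, 1298 and 1332 in tKO cells, and the genotypes overlapped. The rise was 1.36 ± 0.25 in controls and 2.24 ± 0.25 in tKO cells (adjusted p by limma = 0.000184 and 1.23e-06). The difference between the rises, 0.88 ± 0.35, was not called (limma adjusted p = 0.369).

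Type V collagen chains sit inside type I fibrils and limit their diameter. Col5a2 (GM group means 233 and 233 FPKM in control and tKO) was the most expressed of them and changed least, to 298 ± 31.7 FPKM (SD, n = 4) in control DM3 and 300.1 ± 50.1 in tKO DM3. Its log2 change was 0.35 ± 0.12 and 0.36 ± 0.12 (limma adjusted p = 0.0215 and 0.0210). Col5a1, whose gene model overlaps 5021 bases of Gm13372 on the opposite strand (at most 14.7 FPKM), rose more, from 62.1 ± 8.68 to 159 ± 12.5 FPKM in controls while tKO cells went from 57.7 ± 9.49 to 167 ± 20.6 (SD, n = 4). The ratio of Col5a1 to Col5a2 FPKM stood at 0.240 to 0.290 in control GM and 0.483 to 0.575 in control DM3. The tKO ratios were 0.189 to 0.290 and 0.424 to 0.711. Col5a3, the least expressed type V chain, rose from 10.01 ± 4.94 to 23.4 ± 2.25 FPKM in controls while tKO cells went from 13.8 ± 5.59 to 42.1 ± 15.2 (SD, n = 4). In controls the Col5a2 call was lost without any 1 of 3 libraries (population 2, culture 1 and population 1, culture 2 in GM, and population 1, culture 2 in DM3, adjusted p = 0.0524 to 0.0747). The tKO call was lost without clone 1, culture 1 in DM3 or clone 1, culture 2 in GM (0.0647 and 0.0632).

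**Figure D2:**
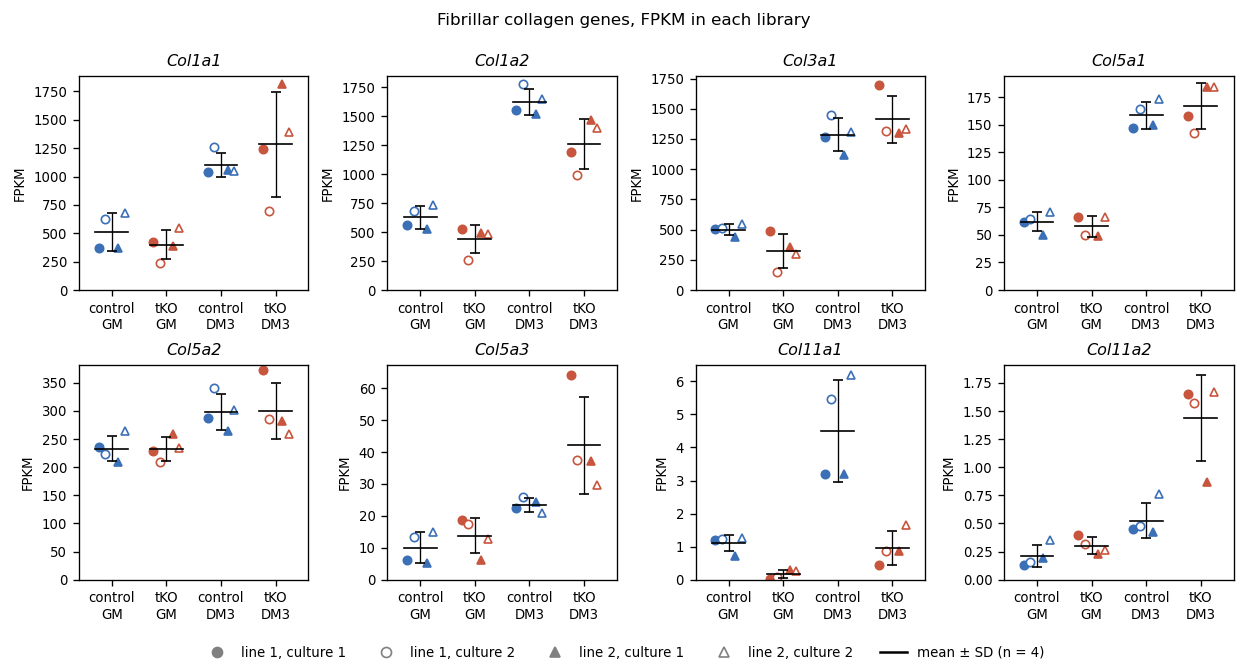
FPKM of the 8 tested fibrillar collagens in each library (vertical axes, starting at 0) for the 4 groups (horizontal axes). Circles are line 1 and triangles line 2, filled symbols culture 1 and open symbols culture 2, and black bars the mean ± SD of 4 libraries. Col1a1, Col1a2 and Col3a1 reach over 1000 FPKM in DM3, and Col11a1 is lower in tKO than in control libraries at both stages.

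Basement membrane collagens split into a pair that rose with differentiation and a pair that was not called in the main fit. Col4a1 (ENSMUSG00000031502, chr8:11198423-11312826, minus strand) and Col4a2 (ENSMUSG00000031503, chr8:11312805-11449287, plus strand) encode the chains of the common type IV network. Their gene models overlap by 22 bases at their start sites, on opposite strands. Col4a1 was at 55.6, 65.03, 51.6 and 73.7 FPKM in control GM and 68.1, 84.4, 62.5 and 73.6 in control DM3, and Col4a2 was at 45.7, 61.6, 44.02 and 67.8 and 71.4, 72.4, 68.2 and 63.7. Neither change was called in controls (log2 0.23 ± 0.22 and 0.35 ± 0.24, limma adjusted p = 0.376 and 0.224). The Col4a2 change was called in a fit of the control libraries alone (limma adjusted p = 0.0345).

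In tKO GM the cultures differed: Col4a1 was at 54.6, 121, 58.9 and 117 FPKM and Col4a2 at 43.9, 99.96, 55.6 and 121. Both clones were near the controls in culture 1 and above both control populations in culture 2. The genotype difference in GM was 0.08 in culture 1 and 0.77 in culture 2 for Col4a1, and 0.14 in culture 1 and 0.76 in culture 2 for Col4a2. Over both cultures it was not called (limma adjusted p = 0.336 and 0.358). In tKO DM3 the levels were 83.9, 87.3, 67.7 and 76.1 FPKM for Col4a1 and 91.8, 73.97, 74.5 and 68.3 for Col4a2. The change from GM to DM3 in tKO cells was not called for either gene and went in opposite directions in the 2 cultures, at 0.40 in culture 1 and -0.54 in culture 2 for Col4a1 and 0.73 in culture 1 and -0.62 in culture 2 for Col4a2. The ratio of Col4a1 to Col4a2 FPKM stayed between 0.909 and 1.24 over all 16 libraries.

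Col4a5 (ENSMUSG00000031274, chrX:141475385-141689234, plus strand) and Col4a6 (ENSMUSG00000031273, chrX:141165403-141474076, minus strand) encode chains that assemble together in some basement membranes, among them that of smooth muscle. They lie head to head on the X chromosome, with RefSeq start sites 1342 bases apart. The stretch before each start site is shown because both genes rose together with differentiation. The windows are the RefSeq bases upstream of the start of each gene in the table, on GRCm38.p6, chrX:141475169-141475384 on the plus strand for Col4a5 and chrX:141474077-141474326 on the minus strand for Col4a6. Capitals mark an E-box, the motif of muscle regulatory factors searched as CANNTG, or a GC box, searched as GGGCGG, each on both strands.
Col4a5: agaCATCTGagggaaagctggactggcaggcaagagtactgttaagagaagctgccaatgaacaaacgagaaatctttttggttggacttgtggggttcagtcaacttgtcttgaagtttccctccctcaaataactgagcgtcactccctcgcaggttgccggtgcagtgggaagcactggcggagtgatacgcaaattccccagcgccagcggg
Col4a6: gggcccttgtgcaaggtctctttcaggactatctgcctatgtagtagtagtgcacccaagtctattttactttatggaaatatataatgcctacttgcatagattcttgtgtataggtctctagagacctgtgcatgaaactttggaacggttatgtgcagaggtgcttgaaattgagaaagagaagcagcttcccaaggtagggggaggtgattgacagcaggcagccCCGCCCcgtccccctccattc
The Col4a5 window held 1 E-box and no GC box, and the Col4a6 window held 1 GC box, on the opposite strand, and no E-box. Of 32851 RefSeq promoters, 61.6% held an E-box in the 216 bases matching the first window and 66.2% in the 250 bases matching the second. A GC box was found in 27.9% and 32.7%.

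Col4a5 was at 6.60, 7.05, 6.34 and 8.68 FPKM in control GM and 42.04, 52.9, 37.3 and 48.6 in control DM3. In tKO cells it was at 8.89, 4.53, 10.3 and 8.75 FPKM in GM and 65.5, 49.9, 57.5 and 56.6 in DM3. Of the 21 collagens it had the largest change of log2(FPKM + 1) in both genotypes, 2.50 ± 0.18 and 2.72 ± 0.18 (limma adjusted p = 1.76e-08 and 6.92e-09). By group means it rose 6.31-fold in controls and 7.06-fold in tKO cells, less than Col23a1, which started near 0 (35.3-fold and 69.4-fold). Col4a5 was not called between genotypes at either stage (log2 0.12 ± 0.18 in GM and 0.34 ± 0.18 in DM3).

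Col4a6 was the basement membrane collagen that differed between genotypes. In GM its levels were 2.16, 2.58, 2.27 and 2.92 FPKM in controls and 4.93, 2.33, 5.36 and 4.37 in tKO cells, where clone 1, culture 2 fell within the control range. In DM3 they were 8.02, 12.1, 7.42 and 10.99 FPKM in controls and 25.9, 24.7, 25.6 and 25.2 in tKO cells, with no overlap and an SD of 0.509 FPKM among the tKO libraries. In DM3 the mean was 2.63 times higher in tKO cells (log2 1.33 ± 0.18, limma adjusted p = 0.000394). The difference was 1.62 in culture 1 and 1.05 in culture 2, 1.33 for line 1 and 1.34 for line 2, and it was called under all 23 alternatives run. In GM the difference of 0.55 ± 0.18 was not called (limma adjusted p = 0.125), while without clone 1, culture 2 it was 0.76 and called (adjusted p = 0.0205). The test of the change in the difference between stages was not passed (0.78 ± 0.26, limma adjusted p = 0.274). The ratio of Col4a5 to Col4a6 FPKM was 3.06, 2.73, 2.80 and 2.97 in control GM and 1.80, 1.95, 1.93 and 2.00 in tKO GM. In DM3 it was 5.24, 4.37, 5.03 and 4.42 in controls and 2.53, 2.02, 2.25 and 2.25 in tKO cells. At both stages every tKO library had a lower ratio than every control library.

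**Figure D3:**
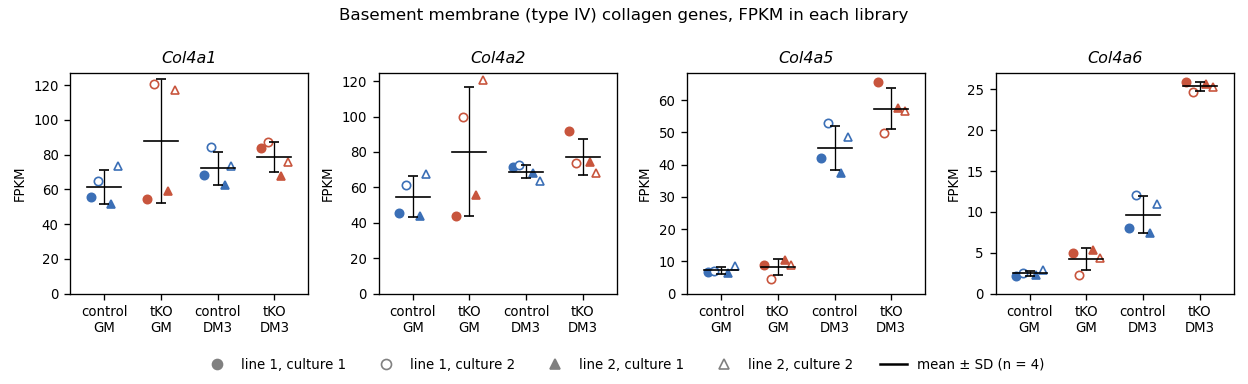
FPKM of the 4 tested type IV collagens in each library (vertical axes, starting at 0) for the 4 groups, with circles for line 1, triangles for line 2, filled symbols for culture 1, open symbols for culture 2 and black bars for the mean ± SD of 4 libraries. Col4a6 in tKO DM3 lies between 24.7 and 25.9 FPKM, above all control DM3 libraries, and Col4a1 and Col4a2 in tKO GM separate by culture.

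Among the other collagens, the chains of type VI collagen did not move together. Type VI filaments contain products of Col6a1 (ENSMUSG00000001119, chr10:76708792-76726168, minus strand), Col6a2 (ENSMUSG00000020241, chr10:76595762-76623630, minus strand) and Col6a3 (ENSMUSG00000048126, chr1:90765923-90843971, minus strand), and inherited defects in the human genes cause muscle disease. Col6a1 was at 48.6, 57.4, 47.7 and 61.8 FPKM in control GM and 189, 329, 198 and 277 in control DM3. In tKO cells it was at 40.1, 25.8, 22.1 and 34.5 FPKM in GM and 201, 159, 129.9 and 167 in DM3. It rose 4.61-fold in controls and 5.36-fold in tKO cells (log2 2.15 ± 0.20 and 2.41 ± 0.20, limma adjusted p = 2.06e-07 and 5.9e-08). Col6a2 was at 12.5, 17.4, 12.2 and 17.9 FPKM in control GM and 49.3, 87.1, 50.8 and 78.5 in control DM3. In tKO cells its levels were 12.7, 7.35, 8.70 and 12.4 FPKM and 62.03, 51.7, 40.9 and 50.3. It rose 4.43-fold and 4.98-fold (log2 2.05 ± 0.21 and 2.23 ± 0.21, limma adjusted p = 5.64e-07 and 2.14e-07).

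Col6a3 went the other way in controls, from 113, 118, 111 and 119.8 FPKM in GM to 76.3, 102, 66.3 and 94.9 in DM3. The difference of -0.46 ± 0.17 was called (limma adjusted p = 0.0278), but not with median-of-ratios scaling (-0.26, adjusted p = 0.199). It was also lost without any 1 of population 1, culture 2 or population 2, culture 2 in GM, or population 1, culture 1 or population 2, culture 1 in DM3 (adjusted p = 0.0547 to 0.101). In tKO cells Col6a3 was at 114, 101, 89.8 and 134 FPKM in GM and 84.1, 81.4, 95.1 and 140.5 in DM3, a difference of -0.15 ± 0.17 that was not called (limma adjusted p = 0.468). The ratio of Col6a1 to Col6a3 FPKM was 0.428 to 0.516 in control GM and 2.47 to 3.23 in control DM3. The tKO ratios were 0.246 to 0.353 in GM and 1.19 to 2.39 in DM3. The ratio of Col6a1 to Col6a2 was 3.29 to 3.92 in control GM and 3.53 to 3.90 in control DM3, against 2.54 to 3.51 and 3.09 to 3.32 in the tKO clones.

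Col18a1 (ENSMUSG00000001435, chr10:77052178-77166548, minus strand), whose product belongs to the multiplexins and carries endostatin at its end, rose 3.63-fold in controls and 2.79-fold in tKO cells (log2 1.74 ± 0.21 and 1.33 ± 0.21, limma adjusted p = 3.27e-06 and 4.67e-05). Col23a1, which encodes a transmembrane collagen, was close to 0 in GM, with 3 to 7 fragments in control libraries and 0 to 5 in tKO libraries. In DM3 it had 139 to 258 fragments in controls and 31 to 471 in tKO cells. The log2 difference was 0.87 in controls and 1.01 in tKO cells, given without a test because the DM3 levels brought the gene past the filter. Its DM3 levels were 0.643, 0.806, 1.21 and 0.892 FPKM in controls and 0.171, 0.350, 2.02 and 2.67 in tKO cells, so clone 1 was below and clone 2 above all control libraries. Without clone 2 the difference in tKO cells was 0.31.

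Col12a1 (ENSMUSG00000032332, chr9:79598991-79718831, minus strand) encodes a collagen that binds along the surface of fibrils. It was at 65.9, 50.2, 49.5 and 64.4 FPKM in control GM and 60.5, 78.3, 54.6 and 98.2 in control DM3, which was not called (log2 0.31 ± 0.31). In tKO cells it was at 21.7, 15.2, 46.7 and 33.2 FPKM in GM and 27.95, 61.9, 53.4 and 71.5 in DM3, a rise of 0.89 ± 0.31 (limma adjusted p = 0.0197). That call was lost without any 1 of clone 1, culture 1 or clone 1, culture 2 in GM, or clone 1, culture 2 or clone 2, culture 2 in DM3 (adjusted p = 0.0542 to 0.0787). In GM every tKO library was below every control library (log2 -1.06 ± 0.31), and the difference was not called (limma adjusted p = 0.0882). Without clone 2, culture 1 in GM it was called (-1.32, adjusted p = 0.0183).

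Col16a1 (ENSMUSG00000040690, chr4:130047840-130099283, plus strand), a minor fibril-associated collagen, fell in controls by 0.74 (SE 0.253, limma adjusted p = 0.0180). The call was lost with median-of-ratios scaling (-0.56, adjusted p = 0.0629) and without culture 1 of either control population in DM3 (0.0539 and 0.0585). It was not called between stages in tKO cells (log2 0.03 ± 0.25). Col7a1, the anchoring fibril collagen, stayed between 0.498 and 1.23 FPKM over all libraries. It fell in tKO cells by 0.29 (SE 0.116, limma adjusted p = 0.0402), and this call was lost when any 1 of 6 of the 8 tKO libraries was left out (adjusted p = 0.0552 to 0.109), the exceptions being clone 1, culture 1 in GM and clone 2, culture 2 in DM3. Col8a1, which forms a short-chain network, was not called in either genotype (log2 0.72 ± 0.42 in controls and 0.78 ± 0.42 in tKO cells, adjusted p by limma = 0.146 and 0.116). In controls it was called in fits of the control libraries alone (0.0206) or without tKO clone 1 or 2 (0.0191 and 0.0121). In tKO cells it was called without clone 1 (1.34, 0.00599) or without clone 1, culture 1 in DM3 (1.18, 0.0146).

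**Figure D4:**
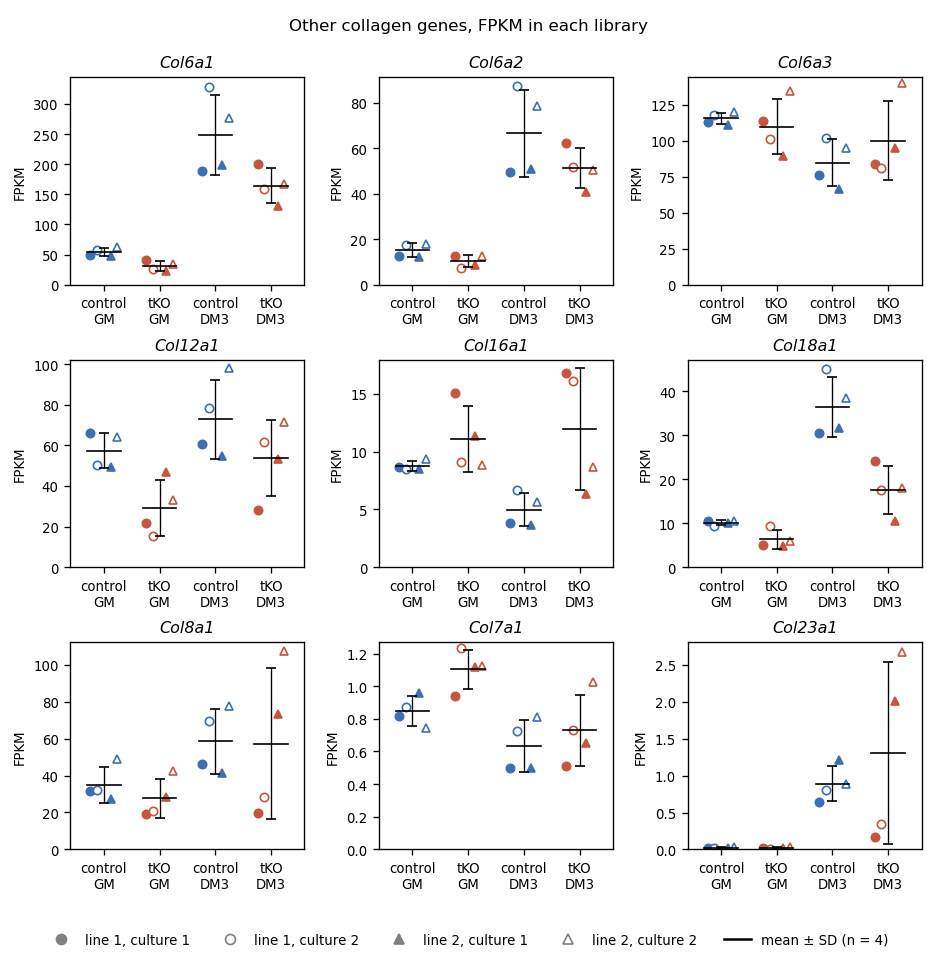
FPKM of the 9 tested collagens of other classes in each library (vertical axes, starting at 0) for the 4 groups, with circles for line 1, triangles for line 2, filled symbols for culture 1, open symbols for culture 2 and black bars for the mean ± SD of 4 libraries. Col6a1, Col6a2 and Col18a1 are higher in DM3 than in GM, Col6a3 is lower in control DM3 than in control GM, and Col8a1 and Col23a1 in tKO DM3 separate by clone.

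Fewer collagens differed between genotypes. In GM 2 of the 21 were called (9.52%, against 2.06% of all tested genes). Both were lower in tKO cells (9.52%, against 1.51% of all genes) and 0 were higher (against 0.549%). In DM3 5 of the 21 were called (23.8%, against 3.38% of all genes), 3 higher (14.3%, against 2.02%) and 2 lower (9.52%, against 1.36%). Over the 19, 2 were called in GM (10.5%) and 4 in DM3 (21.1%), 2 in each direction. At an unadjusted p under 0.05 there were 8 of the 21 in GM (38.1%, against 17.5% of all genes) and 7 in DM3 (33.3%, against 16.8%). Without clone 1, culture 2 in GM, the library lowest in summed collagen FPKM, 1 collagen was called in GM, and it was higher in tKO cells (Col4a6). The median difference of the 21 collagens was -0.09 in GM and 0.12 in DM3, beside -0.01 and 0.01 for all genes.

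Markers of other cell types that make collagen were read beside the genotype differences. The 8 fibroblast markers summed to 6.73 to 9.21 FPKM in GM and 8.57 to 11.3 in DM3 for controls, above the tKO ranges of 3.49 to 3.94 and 3.88 to 5.25. Of the 3 tested, 2 were lower in tKO GM and 1 in tKO DM3, and 0 were higher at either stage. The median log2 difference of the 3 was -1.27 in GM and -0.77 in DM3. Osr1, a transcription factor of connective tissue cells, was lower at both stages (log2 -1.42 and -2.11, limma adjusted p = 9.73e-06 and 7.1e-08), and Pdgfra, a receptor of fibro-adipogenic cells, was lower in GM (-1.27, 0.00477). Thy1, Tcf21 and Lum stayed at or near 0, at no more than 0.330 FPKM. Osteoblast and chondrocyte (1 tested), adipocyte (2 tested) and leukocyte (1 tested) lists had no call between genotypes. Over all libraries the osteoblast and chondrocyte list summed to 4.11 to 26.3 FPKM and the adipocyte list to 0.486 to 11.8. The leukocyte list summed to 0.691 to 4.06 FPKM, of which the pan-leukocyte marker Ptprc reached at most 0.0619. Summed endothelial markers reached at most 0.483 FPKM. The part of such cells in the genotype differences described next was not tested.

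**Figure D5:**
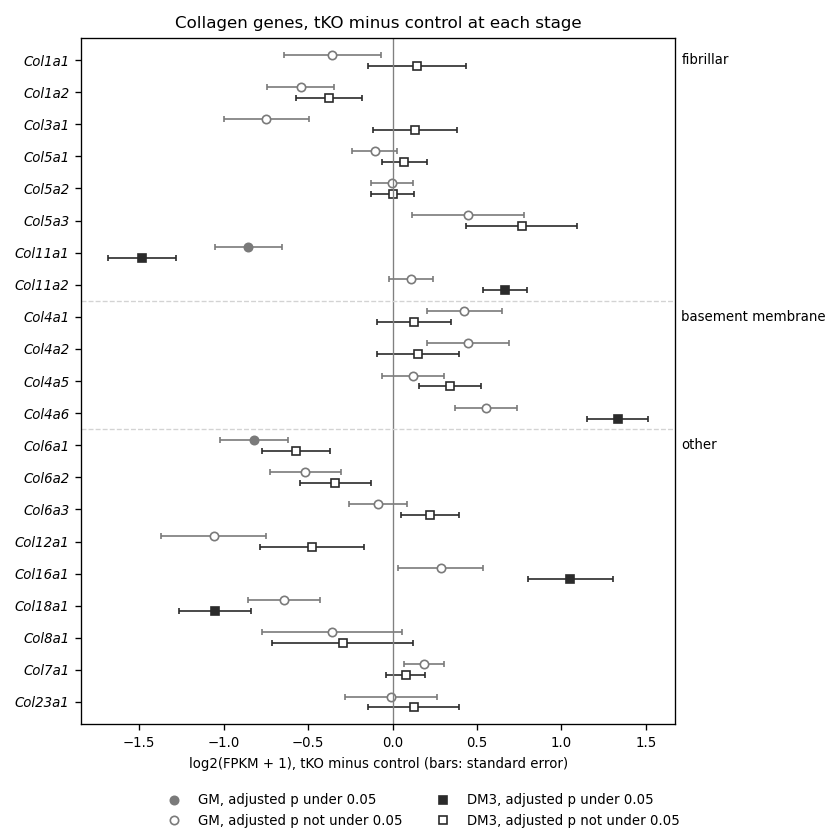
Difference between tKO and control cells for the 21 tested collagens in GM (grey circles) and DM3 (black squares), as the difference of log2(FPKM + 1) with its standard error on the horizontal axis and genes by class on the vertical axis. Filled symbols have a limma adjusted p under 0.05: Col11a1 and Col6a1 in GM, and Col11a1, Col11a2, Col4a6, Col16a1 and Col18a1 in DM3. Col11a2 and Col23a1 passed the expression filter only through tKO DM3, so their symbols are descriptions.

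The chains of type XI collagen, a relative of type V best known from cartilage fibrils, had differences of opposite sign in DM3. Col11a1 (ENSMUSG00000027966, chr3:114030540-114220718, plus strand) was at 1.20, 1.24, 0.731 and 1.27 FPKM in control GM and 0.0352, 0.0864, 0.287 and 0.258 in tKO GM. In DM3 it was at 3.19, 5.45, 3.20 and 6.18 FPKM in controls and 0.435, 0.870, 0.875 and 1.64 in tKO cells. The genotypes did not overlap at either stage, with means 6.67 times lower in tKO GM and 4.71 times lower in tKO DM3. The DM3 difference of -1.48 ± 0.20 (limma adjusted p = 0.000351) was -1.35 in culture 1 and -1.61 in culture 2, and it was called under all 22 alternatives run. The GM difference was -0.85 ± 0.20 (limma adjusted p = 0.0368), with -0.76 in culture 1 and -0.95 in culture 2. That call was lost when any GM library other than clone 2, culture 1 was left out (log2 -0.95 to -0.80, adjusted p = 0.0528 to 0.125). The rise with differentiation was called in both genotypes (log2 1.35 ± 0.20 in controls and 0.72 ± 0.20 in tKO cells), and the difference between them was not (limma adjusted p = 0.432). By group means the order was the reverse, with a 4.05-fold rise in controls and a 5.73-fold rise in tKO cells. The difference between the rises ran from -0.79 to 0.73 over 30 alternatives and changed sign in 2 of them, so neither genotype is shown to rise more.

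Col11a2 (ENSMUSG00000024330, chr17:34039437-34066685, plus strand) was low throughout. Its levels were 0.132, 0.153, 0.196 and 0.350 FPKM in control GM and 0.396, 0.321, 0.227 and 0.263 in tKO GM, where the groups overlapped. In DM3 they were 0.450, 0.473, 0.421 and 0.761 FPKM in controls and 1.65, 1.57, 0.871 and 1.67 in tKO cells, with no overlap. The DM3 mean was 2.74 times higher in tKO cells (log2 0.67, with 0.63 in culture 1 and 0.70 in culture 2). This is a description, since the tKO DM3 levels brought the gene past the filter. The ratio of Col11a1 to Col11a2 FPKM was 3.64 to 9.07 in control GM and 0.0889 to 1.27 in tKO GM. In DM3 it was 7.09 to 11.5 in controls and 0.263 to 1.00 in tKO cells.

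Col6a1 was the other collagen called in GM, where its mean was 53.9 ± 6.89 FPKM in controls and 30.6 ± 8.20 in tKO cells (SD, n = 4). The groups did not overlap, and the difference was -0.82 ± 0.20 (limma adjusted p = 0.0438), with -0.67 in culture 1 and -0.97 in culture 2. It was lost when any GM library other than tKO clone 1, culture 1 was left out (log2 -0.89 to -0.68, adjusted p = 0.0544 to 0.154). In DM3 the means were 248 ± 66.8 and 164 ± 29.2 FPKM, the groups overlapped, and the difference of -0.57 ± 0.20 was not called (limma adjusted p = 0.148). Col6a2 differed by -0.52 ± 0.21 in GM and -0.34 ± 0.21 in DM3 and Col6a3 by -0.09 ± 0.17 and 0.22 ± 0.17, none of which was called.

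Col16a1 was higher in tKO DM3. Its levels were 3.85, 6.64, 3.66 and 5.66 FPKM in control DM3 and 16.8, 16.1, 6.29 and 8.62 in tKO DM3, and 8.69, 8.45, 8.45 and 9.35 and 15.04, 9.09, 11.4 and 8.87 in control and tKO GM. In DM3 clone 1 was above all controls, while clone 2, culture 1 lay within the control range. The difference was 1.05 ± 0.25 (limma adjusted p = 0.0282), with 1.26 in culture 1 and 0.85 in culture 2, and it was 1.58 for line 1 and 0.52 for line 2. The call was lost without culture 1 of either control population (0.97 and 0.95) or clone 1, culture 2 (0.89), with adjusted p = 0.0926 to 0.1.

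Col18a1 was lower in tKO DM3, at 24.03, 17.4, 10.5 and 18.1 FPKM against 30.5, 45.1, 31.6 and 38.5 in control DM3, with no overlap. In GM its levels were 10.5, 9.26, 10.01 and 10.4 FPKM in controls and 5.01, 9.34, 4.79 and 5.95 in tKO cells, where clone 1, culture 2 reached the control range. The DM3 difference was -1.05 ± 0.21 (limma adjusted p = 0.0106), with -0.92 in culture 1 and -1.19 in culture 2, and the GM difference of -0.64 ± 0.21 was not called. Fitting only the DM3 libraries gave an adjusted p of 0.0656. The gene model overlaps 8825 bases of Slc19a1 on the opposite strand, which reached 31.2 FPKM. Whether the counting used strand is not given in the sources used here, so fragments of the 2 genes may be mixed.

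The other fibrillar collagens were not called between genotypes at either stage. Col3a1 differed by -0.75 ± 0.25 in GM, with -0.17 in culture 1 and -1.32 in culture 2 (limma adjusted p = 0.129). Without clone 1, culture 1 it was called (-0.98, adjusted p = 0.0472). It was also called without clone 1 altogether (-0.60, adjusted p = 0.0371). Col1a1 showed 0.13 in culture 1 and -0.85 in culture 2 in GM, and Col1a2 -0.10 in culture 1 and -0.99 in culture 2. The lowest tKO GM library for all of these was clone 1, culture 2, at 239 FPKM for Col1a1, 262 for Col1a2 and 147 for Col3a1, and this library also had the highest summed myotube markers in GM (73.1 FPKM). The part of that difference in these values was not tested. Col5a3 was higher in every tKO DM3 library (64.3, 37.4, 37.1 and 29.6 FPKM) than in any control DM3 library (22.4, 26.1, 24.3 and 20.9 FPKM), a difference of 0.76 ± 0.33 that was not called (limma adjusted p = 0.248). Col5a1 and Col5a2 differed by at most 0.11 on the log2 scale at either stage.

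The genotype by stage interaction was called for 0 of the 21 collagens by limma, against 0.254% of all genes, and 5 had an unadjusted p under 0.05 (23.8%, against 10.8% of all genes, namely Col4a6, Col11a2, Col3a1, Col11a1 and Col16a1). A difference called at 1 stage alone is therefore not shown to differ between stages. Of the 5, Col11a2 passed the filter only through tKO DM3, so its value is a description. Between the 2 control populations, 0 of the 21 were called, 0 at an unadjusted p under 0.05. Of all genes, 0% were called by limma and 104 had an unadjusted p under 0.05 (0.879%). That share is smaller than this threshold gives by chance, and the fit left the culture number out. The 0 calls therefore do not show that the populations are alike. Between the 2 tKO clones, 0 of the 21 were called, against 1.05% of all genes, and 6 had an unadjusted p under 0.05 (28.6%, against 17.0% of all genes). Of these 6, Col8a1 came nearest, at 19.2, 21.1, 28.2 and 42.3 FPKM in tKO GM and 19.5, 28.6, 73.04 and 108 in tKO DM3, against 27.2 to 48.8 in control GM and 41.2 to 77.7 in control DM3. Clone 2 was above clone 1 by 1.31 ± 0.26 (limma adjusted p = 0.0546), and leaving out clone 2, culture 1 in GM gave 1.53 (adjusted p = 0.0442). Col1a1 (0.65), Col12a1 (0.82) and Col23a1 (0.71) were higher and Col5a3 (-0.74) and Col16a1 (-0.63) lower in clone 2 by these log2 differences, none called. Against controls in DM3, Col23a1 differed by -0.58 without clone 2 and by 0.83 without clone 1, and Col8a1 was called lower without clone 2 (-1.23, limma adjusted p = 0.0135).

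The 23 collagens below the filter reached at most 1.24 FPKM in any library (Col8a2) and were not tested. They were 3 fibrillar, 2 basement membrane and 18 other collagens. Col13a1, which encodes a collagen of the neuromuscular junction, had 0 fragments in all 16 libraries, which allows up to 3 fragments in each. Col9a1 never exceeded 2 fragments, and only Col9a3 and Col17a1 exceeded 3 fragments in every library. Such limits cover counting error only. Among fibrillar members Col24a1 had 26 to 193 fragments in control DM3 libraries and 5 to 24 in tKO DM3 libraries, beside 1 to 9 and 0 to 3 in GM. Col8a2, a short-chain collagen, had 55 to 210 and 9 to 65 fragments in control and tKO DM3. Col20a1 was the reverse, with 11 to 115 fragments in tKO DM3 against 2 to 28 in control DM3. The remaining type IV chains, Col4a3 and Col4a4, which join Col4a5 in kidney basement membrane, had at most 7 and 16 fragments.

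The genes that make, secrete, process and bind collagen were followed as 7 lists with 72 genes, of which 55 passed the filter. On differentiation 33 rose and 6 fell in controls (60% and 10.9%, against 23.2% and 38.3% of all genes). In tKO cells 34 rose and 4 fell (61.8% and 7.27%, against 24.9% and 36%), and the lists below are to be read against the same all-gene shares. Among 17 genes of chain modification and folding, 12 rose in controls (70.6%) and 14 in tKO cells (82.4%) and 0 fell. Serpinh1, the collagen chaperone HSP47, went from 302 ± 9.89 to 1032 ± 213 FPKM in controls while tKO cells went from 279.9 ± 31.95 to 1008 ± 173 (SD, n = 4). Its log2 change was 1.75 and 1.84 (limma adjusted p = 7.71e-08 and 4.49e-08). P4ha1, a catalytic subunit of prolyl 4-hydroxylase, changed by 0.71 in tKO cells (limma adjusted p = 0.0175) and was not called in controls (0.42, 0.137). Of 7 fibril-associated matrix genes, 7 rose in controls and 6 in tKO cells. Sparc, a collagen-binding matrix protein, went from 892 to 3349 FPKM in controls and from 792 to 2531 in tKO cells. Of 4 crosslinking enzymes tested, 0 rose, 3 fell in controls (75%) and 1 in tKO cells (25%, below the share of all genes). Lox, the lysyl oxidase that crosslinks fibrils, fell by 0.66 in controls (limma adjusted p = 0.0220) and was not called in tKO cells (-0.10).

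Of the basement membrane partners, 6 of 11 rose (54.5%) and 2 fell (18.2%) in both genotypes. Of 6 collagen receptors 3 rose in controls (50%) and 2 in tKO cells (33.3%, near the 24.9% of all genes). Among 5 secretion genes 2 rose in controls (40%) and 3 in tKO cells (60%), and among 5 propeptide processing genes 3 rose (60%) and 1 fell (20%) in both.

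Between genotypes, 2 of the 55 pathway genes were higher and 3 lower in tKO GM (3.64% and 5.45%, against 0.549% and 1.51% of all genes). In tKO DM3 1 was higher (1.82%, near the 2.02% of all genes) and 4 were lower (7.27%, against 1.36%). P4ha3, another catalytic subunit of prolyl 4-hydroxylase, was at 5.77 ± 0.818 FPKM in control GM and 1.41 ± 0.568 in tKO GM, and at 5.09 ± 1.71 and 1.86 ± 0.575 in DM3 (SD, n = 4). It was lower in tKO cells at both stages (log2 -1.51 and -1.07, limma adjusted p = 0.000589 and 0.00871). Adamts2, which removes the N-propeptide of fibrillar procollagens, was lower at both stages (log2 -1.33 in GM and -1.08 in DM3, limma adjusted p = 0.0208 and 0.0424). Loxl4, a lysyl oxidase relative, was higher at both stages, at 16.3 to 21.01 FPKM in tKO DM3 against 6.04 to 8.09 in control DM3 (log2 0.69 in GM and 1.36 in DM3, limma adjusted p = 0.0292 and 5.56e-05). Pcolce2, an enhancer of C-propeptide removal, was higher in tKO GM (0.56, limma adjusted p = 0.0409), and Mrc2, an endocytic collagen receptor, was lower there (-0.96, 0.0432). In DM3 the proteoglycan gene Dcn, whose product decorin binds collagen fibrils, was lower in tKO cells at 5.36 to 14.3 FPKM against 25.2 to 34.4 in controls (log2 -1.65, limma adjusted p = 0.0145). Lamb3, a laminin chain, was also lower (-1.11, limma adjusted p = 0.0151).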

How the data were processed

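Values were FPKM per gene, deposited by the authors for the 16 libraries. The submitters' processing notes name STAR, DESeq and mm10 without roles, and the counting program and its strand setting are not given in the sources used here. Libraries were poly(A)-enriched, per the labels' protocols. Fragment numbers were recovered from the FPKM steps and used for depth, for genes below the filter and for the voom alternative; limits for a count of 0 (3 fragments) cover counting error only.

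The 11832 genes with a mean of at least 0.5 FPKM over 16 libraries were fitted as log2(FPKM + 1) with limma 3.58.1 (R 4.3.3), with 1 mean per group and trended, robust variances, and p-values were adjusted by Benjamini-Hochberg over all of them (threshold 0.05). Lines were compared within a genotype with stage in the model. Tested on simulated data for tKO against control in GM (11832 genes), it found 84% of the genes changed 2-fold in FPKM + 1 and 98% of those changed 4-fold, and 8 of 190 calls were false. The changed genes were drawn from those with a control GM mean above 1 in log2(FPKM + 1). Simulated libraries varied independently, without lines or cultures, so these rates do not cover weaker genes or differences between lines or cultures. Python 3.11.15, numpy 2.4.6, pandas 2.3.3 and matplotlib 3.10.9 handled tables and figures.

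Values in every library were to be given for collagens called between genotypes or lines and for the 3 most expressed of each class; Col5a3, Col6a2, Col8a1 and Col23a1 were added after their values were seen. Pathway genes were named where called between genotypes, besides Serpinh1, P4ha1, Lox and Sparc. The members and gene lists were chosen with earlier results of these data known. Alternatives were a pseudocount of 0.1, no filter, a minimum of 5 FPKM, TPM, median-of-ratios scaling, voom, no trend or robust variance, only the compared libraries, replicate blocks, line means, and leaving out each library or line.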

Additional observations from a re-analysis of the deposited data

Results flagged for a closer look

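In 7 of 84 combinations of a tested collagen and a group of 4 libraries, 1 library stood apart, its gap to the nearest other library taking up most of the group's range (Dixon's 95% limit). Chance alone gives about 1 in 20 such groups, or 4.2 of 84. Of these, 2 were libraries of tKO clone 1: Col1a2 in culture 2 in GM, at 262 FPKM with the others at 486 to 523, and Col3a1 in culture 1 in DM3, at 1697 FPKM with the others at 1298 to 1332. Col1a1 in control population 1, culture 2 in DM3 was at 1258 FPKM, above 1037 to 1061. In the type XI genes, Col11a1 was low in control population 2, culture 1 in GM (0.731 FPKM, others 1.20 to 1.27). Col11a2 was high in control population 2, culture 2 in DM3 (0.761 FPKM, others 0.421 to 0.473) and low in tKO clone 2, culture 1 in DM3 (0.871 FPKM, others 1.57 to 1.67). Col23a1 in control population 2, culture 2 in GM was at 0.0380 FPKM with the others at 0.0202 to 0.0213, values that rest on 3 to 7 fragments.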

How the results depend on the processing

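No called collagen changed direction under any alternative run. Of the 16 collagens called between stages, 9 in controls and 11 in tKO cells were called under every alternative. Of those called between genotypes, 2 of 5 in DM3 (Col11a1 and Col4a6) and 0 of 2 in GM were. Col11a2, counted in the 16, the 11 and the 5, and Col23a1, counted in the 16, passed the filter only through tKO DM3. In GM the count of 2 became 0 without a filter, with a minimum of 5 FPKM and without control population 1 or 2. It became 1 with median-of-ratios scaling, only the compared libraries, line means, without tKO clone 1, or with tKO clone 1, culture 2 in GM left out (added after the data were seen). In the last 2 cases both main calls, Col6a1 and Col11a1, were lost. The 1 call was then Col3a1, lower in tKO cells, without clone 1, and Col4a6, higher in tKO cells, without that library. In DM3 the count of 5 became 3 with a minimum of 5 FPKM and 2 with only the compared libraries, line means, or without control population 1 or 2. It rose to 7 without tKO clone 2 (3 higher and 4 lower), where 1136 of all genes were called in place of 400. The control stage count of 16 became 9 without control population 1. The minimum of 5 FPKM tests 17 of the 21, among them Col6a1, whose GM call was lost there (limma adjusted p = 0.0554). The other cases have fewer samples, except scaling and no filter. The cause of these changes in count was not tested. Leaving out 1 library gave 0 to 2 in GM, 4 to 5 in DM3, 13 to 15 between stages in both genotypes and 0 to 1 between clones. In these runs the log2 ratio of summed collagen FPKM was -0.41 to -0.21 in GM, -0.08 to 0.07 in DM3, 1.08 to 1.24 between stages in controls and 1.33 to 1.56 in tKO cells. Median-of-ratios scaling gave 1.36 and 1.63 between stages. Between clones the count of 0 became 1 with median-of-ratios scaling (Col8a1) and 1 with voom (Col23a1). Counting types XV and XVIII with the basement membrane collagens raised their DM3 count from 1 to 2.

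Deviations of libraries with the same culture number correlated between genotypes at -0.22 to 0.56 in DM3 and 0.10 to 0.45 in GM. Those with the other culture number correlated at -0.46 to 0.34 in DM3 and -0.42 to -0.06 in GM. In GM the 2 ranges did not overlap, so libraries with the same number were more alike there. The main fits left the culture number out, and fits that include it follow. With culture as a replicate block over all libraries, the counts were 2 in GM, 5 in DM3, 16 and 16 between stages, 0 for the interaction and 1 between clones (Col8a1). With a separate replicate block in each stage they were 3 (Col12a1 added, adjusted p = 0.0375), 5, 17 (Col4a2 added, 0.0301), 16, 0 and 2 (Col8a1 and Col12a1). Over all genes, this block gave 635 calls between genotypes in GM in place of 244, and 748 in DM3 in place of 400. Collagens with a mean near 0.5 FPKM rest on fewer fragments than strongly expressed ones. Col7a1 had 147 to 379 per library and Col11a2 23 to 321. With 4 libraries a group from 2 lines, differences of the size of Col1a2 or Col4a5 were not called.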

Other observations

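Some collagens below the expression filter were not evenly spread over the groups; these values were not tested. Col10a1, the type X collagen of hypertrophic cartilage, had 24 to 60 fragments per library in control GM and 23 to 65 in control DM3, and 4 to 42 and 0 to 19 in the tKO groups. Col17a1, a transmembrane collagen of hemidesmosomes, had 23 to 38 and 14 to 37 fragments in control and tKO GM and 7 to 12 and 8 to 16 in DM3. Col6a4, a further type VI chain, had 4 to 24 and 3 to 27 fragments in GM and 28 to 84 and 30 to 57 in DM3. Col22a1, found at muscle-tendon junctions, had 0 fragments in every control GM library, 0 to 2 in control DM3, and 1 to 17 and 0 to 9 in the tKO groups. Its highest value was 0.0852 FPKM, in tKO clone 1, culture 2 in GM. Depth differed between libraries, so these ranges are not scaled.

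Of the collagens below the filter, Col4a3 held 3 of the 8-base miR-206 motifs in its longest 3′ UTR and Col25a1 held 1. Col4a3 had 0 to 4 fragments per library in control GM and 0 in all control DM3 libraries, against 2 to 7 and 0 to 4 in the tKO groups.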
